A study of Mus musculus with 24 samples.

Results

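The genes described here were 49 interferon-stimulated genes, the genes that cells switch on when they sense type I interferon. They were picked by symbol from a list of names that was chosen with earlier results of these data known. The shares of members called below therefore describe this list and are not independent evidence. All 49 symbols were found among the 55291 gene names of the deposited count tables, all 49 had at least 10 counts on average over the 24 libraries, and all 49 were among the 16258 genes that passed the filter on low counts and were tested. The study cultured fibroblasts from mouse lung and asked how they respond to extracellular cold-inducible RNA-binding protein (CIRP), a protein that is released from stressed cells and acts as a danger signal, and whether that response needs the receptor TLR4 or the fibrosis factor TGF-β1. Total RNA was sequenced with a strand-specific kit. Cells came from WT mice and from TLR4-/- mice, both on the C57BL/6 strain and 4 to 8 weeks old, and each group of cells was isolated from 3 to 4 lungs pooled together. At passages 3 to 6 the cells were moved to reduced-serum medium overnight. The treatments lasted 24 h and were the vehicle PBS (a buffered salt solution), rmCIRP (recombinant mouse CIRP, 1 μg/ml), rmTGF-β1 (recombinant mouse TGF-β1, 2 ng/ml), or the 2 proteins together ("both"). The 2 genotypes and 4 treatments gave 8 conditions with 3 libraries each. The cells were pooled and passaged before treatment, and nothing in the labels says that the 3 libraries of a condition came from separate cultures or animals. The p-values therefore measure the spread between these libraries only, which may be technical.

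Type I interferons (IFN-β and the IFN-α family) bind a receptor made of IFNAR1 and IFNAR2, whose kinases TYK2 and JAK1 pass the signal on by phosphorylation. It reaches the nucleus as the complex ISGF3, which contains IRF9 and binds a DNA element called the interferon-stimulated response element (ISRE) and turns on a broad antiviral program. TLR4, the receptor for bacterial lipopolysaccharide, can start IFN-β transcription through the adaptors TRAM and TRIF and the factor IRF3, and lung fibroblasts are known both to make and to answer IFN-β.

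Each library had between 29853346 and 39664606 reads assigned to genes. The libraries carried the defining fibroblast transcripts: the summed normalized counts of 10 fibroblast markers, among them Col1a1, Col3a1, Pdgfrb and Vim, ranged from 681665 to 903950, and none of the 10 was at 0. Normalized counts are counts divided by the size factor of the library. Macrophage transcripts were also present. The sum over 14 macrophage markers was 76020 to 99427 in WT libraries and 335677 to 430380 in libraries labelled TLR4-/-, and without Lyz2 it was 15755 to 19326 against 77779 to 101013. Other cell types were scarce. The summed normalized counts of 5 lymphocyte markers were 0 to 10, with Ncr1 at 0 in every library, those of 7 epithelial markers 24 to 116 in WT libraries and 274 to 346 in the others, those of 5 endothelial markers 496 to 869 in WT libraries and 251 to 748 in the others, and those of 5 neutrophil markers 85 to 391, nearly all from S100a8, with S100a9 at 0. Plasmacytoid dendritic cells, the main source of type I interferon in blood, have the defining marker Siglech, which was at 0 in every library but 1 of WT cells with rmCIRP, where it was 1.06. Of the other 3 markers of these cells, Flt3 was at most 2.00 and Ccr9 at most 10.9, while Tcf4, which fibroblasts also express, made up nearly all of the sum of 2391 to 4151. Tlr4 had 718, 802 and 758 normalized counts in the WT libraries with PBS and 927, 892 and 891 in the libraries labelled TLR4-/- with PBS. The latter level was the higher by 0.25 (SE 0.06) on the log2 scale (adjusted p = 0.00123, edgeR's quasi-likelihood test, Benjamini-Hochberg). A gene's total does not tell which of its exons were read, so this neither checks nor contradicts a deletion within the gene, and the name "labelled TLR4-/-" is kept throughout. Xist, a transcript of female cells, had 4328 to 6096 normalized counts in libraries labelled TLR4-/- and no more than 3.00 in WT libraries. Of the 10 fibroblast markers, 1 was higher and 3 were lower in libraries labelled TLR4-/- with PBS, at an adjusted p under 0.1 in edgeR. The other 6 were not called. Thy1 averaged 17842 normalized counts in WT libraries with PBS and 8025 in those labelled TLR4-/-, and Pdgfra 7869 and 3455. The genotypes therefore differed in Xist, in macrophage, epithelial and endothelial transcripts and in some fibroblast transcripts as well as in their label. These cannot be told apart in a comparison of genotypes. In cultures measured in bulk, fewer cells of a type and less RNA per cell cannot be told apart either.

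The promoters of several members are shown to mark where core letters of the ISRE, the element through which ISGF3 acts, were found or were absent. RefSeq windows on GRCm38.p6, from 250 bases before to 50 bases after each annotated start, were matched by symbol and were on hand for 37 of the 49 members. The submitters' notes name another build (NCBIM37) for their counts, so the windows were joined by gene name only. The core letters of the ISRE were searched as 2 copies of GAAA with any 2 bases between them (2 copies of TTTC when read from the other strand). They stood in the windows of 19 of these 37 members (51.4%) and of 1079 of all 27025 genes with a window (3.99%). The interferon-γ element GAS, searched as TTC and GAA with any 3 bases between them, stood in 8 of the 37 (21.6%, against 9.55% of all genes) and a κB-type site, GGGA and TTCC with any 2 bases between them, in 4 (10.8%, against 1.63%). Both strands were searched for each. The 31 ISRE matches lay between 188 bases before the start and the end of the window, 22 before the start and 9 after it, and 11 members held more than 1 match. The 250 bases before the start are printed here in the direction of the gene for 6 members, with ISRE core matches in capitals. Ifit3, Isg15, Oas3 and Rsad2 were chosen because they hold the letters and rose with rmCIRP, Oasl1 because it rose without them in its window, and Ifitm2 because it holds them and was not called in WT cells with rmCIRP. They are Ifit3 at chr19:34583279-34583528 (plus strand), Isg15 at chr4:156200819-156201068 (minus strand), Oas3 at chr5:120777660-120777909 (minus strand), Rsad2 at chr12:26456453-26456702 (minus strand), Oasl1 at chr5:114922990-114923239 (plus strand) and Ifitm2 at chr7:140955962-140956211 (minus strand).
Ifit3: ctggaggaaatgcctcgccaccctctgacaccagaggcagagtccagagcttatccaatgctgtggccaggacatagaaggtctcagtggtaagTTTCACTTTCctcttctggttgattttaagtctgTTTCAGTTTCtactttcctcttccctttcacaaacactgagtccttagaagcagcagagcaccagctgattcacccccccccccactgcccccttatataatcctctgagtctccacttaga
Isg15: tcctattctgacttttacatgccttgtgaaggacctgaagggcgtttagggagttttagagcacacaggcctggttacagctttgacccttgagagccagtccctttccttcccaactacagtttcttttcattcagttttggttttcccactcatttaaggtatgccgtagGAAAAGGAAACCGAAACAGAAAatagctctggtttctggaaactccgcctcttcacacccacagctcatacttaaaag
Oas3: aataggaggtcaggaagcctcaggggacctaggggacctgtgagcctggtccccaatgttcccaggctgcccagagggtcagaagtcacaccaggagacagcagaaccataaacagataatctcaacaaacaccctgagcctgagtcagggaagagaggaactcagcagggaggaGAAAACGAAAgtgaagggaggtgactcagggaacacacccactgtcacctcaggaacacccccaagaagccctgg
Rsad2: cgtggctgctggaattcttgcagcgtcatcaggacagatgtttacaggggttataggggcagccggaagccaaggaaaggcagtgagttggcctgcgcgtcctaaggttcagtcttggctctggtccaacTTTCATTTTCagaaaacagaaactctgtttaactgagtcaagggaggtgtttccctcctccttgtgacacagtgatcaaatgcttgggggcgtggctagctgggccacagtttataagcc
Oasl1: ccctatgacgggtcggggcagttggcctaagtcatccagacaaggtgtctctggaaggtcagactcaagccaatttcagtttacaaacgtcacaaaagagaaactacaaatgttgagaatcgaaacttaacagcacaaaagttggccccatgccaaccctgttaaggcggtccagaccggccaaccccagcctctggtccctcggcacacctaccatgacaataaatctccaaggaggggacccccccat
Ifitm2: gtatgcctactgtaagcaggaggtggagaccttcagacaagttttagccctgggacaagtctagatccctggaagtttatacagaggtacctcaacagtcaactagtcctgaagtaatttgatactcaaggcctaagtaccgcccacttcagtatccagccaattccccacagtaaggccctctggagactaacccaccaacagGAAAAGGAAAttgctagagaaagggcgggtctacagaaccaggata
Isg15 held 3 overlapping matches, the first beginning 78 bases before the start. Ifit3 held 2, beginning 156 and 122 bases before it, on the opposite strand. The letters do not show that a factor bound there, and their absence from a window says nothing about the rest of the gene.

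**Figure D1:**
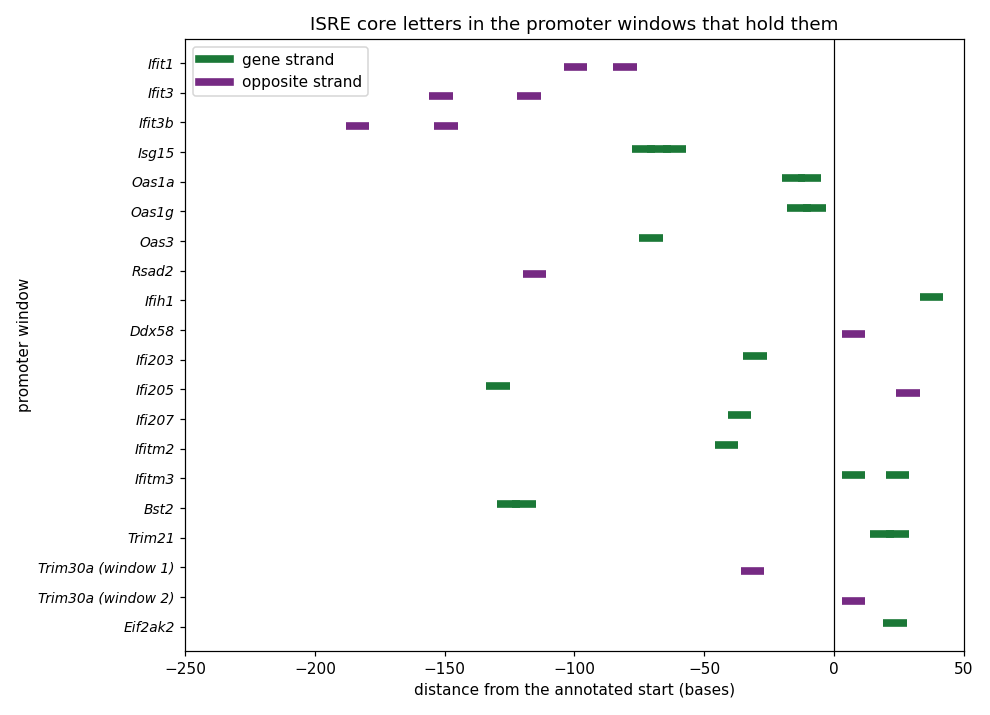
Positions of the ISRE core letters in the promoter windows that hold them, in bases from the annotated start on the x axis, with 1 line per window and the colour giving the strand. The 31 matches fall between -188 and the end of the window, with 22 before the start.

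In WT cultures, rmCIRP raised nearly the whole list. With rmCIRP against PBS, 46 of the 49 members had higher counts (93.9%, against 19.8% of all 16258 genes tested that were higher), none was called lower, and 3 were not called (edgeR's quasi-likelihood test, Benjamini-Hochberg adjusted p under 0.1 over all genes tested). The median log2 fold change of the members was 3.72, against -0.02 over all genes tested. A rise of at least 1 on the log2 scale was seen in 44 members, of at least 3 in 30 and of at least 5 in 17. The adjusted p-values of the 46 ranged from 1.09e-14 for Ifi209 to 1.21e-06 for Isg20 by that edgeR test, and for each of the 46 the 3 rmCIRP libraries all lay above the 3 PBS libraries, which held for 23.9% of all genes tested. Reads on the 49 members together made up 0.0659% ± 0.0014 (SD, n = 3) of the reads on genes with PBS and 0.453% ± 0.0761 with rmCIRP.

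**Figure D2:**
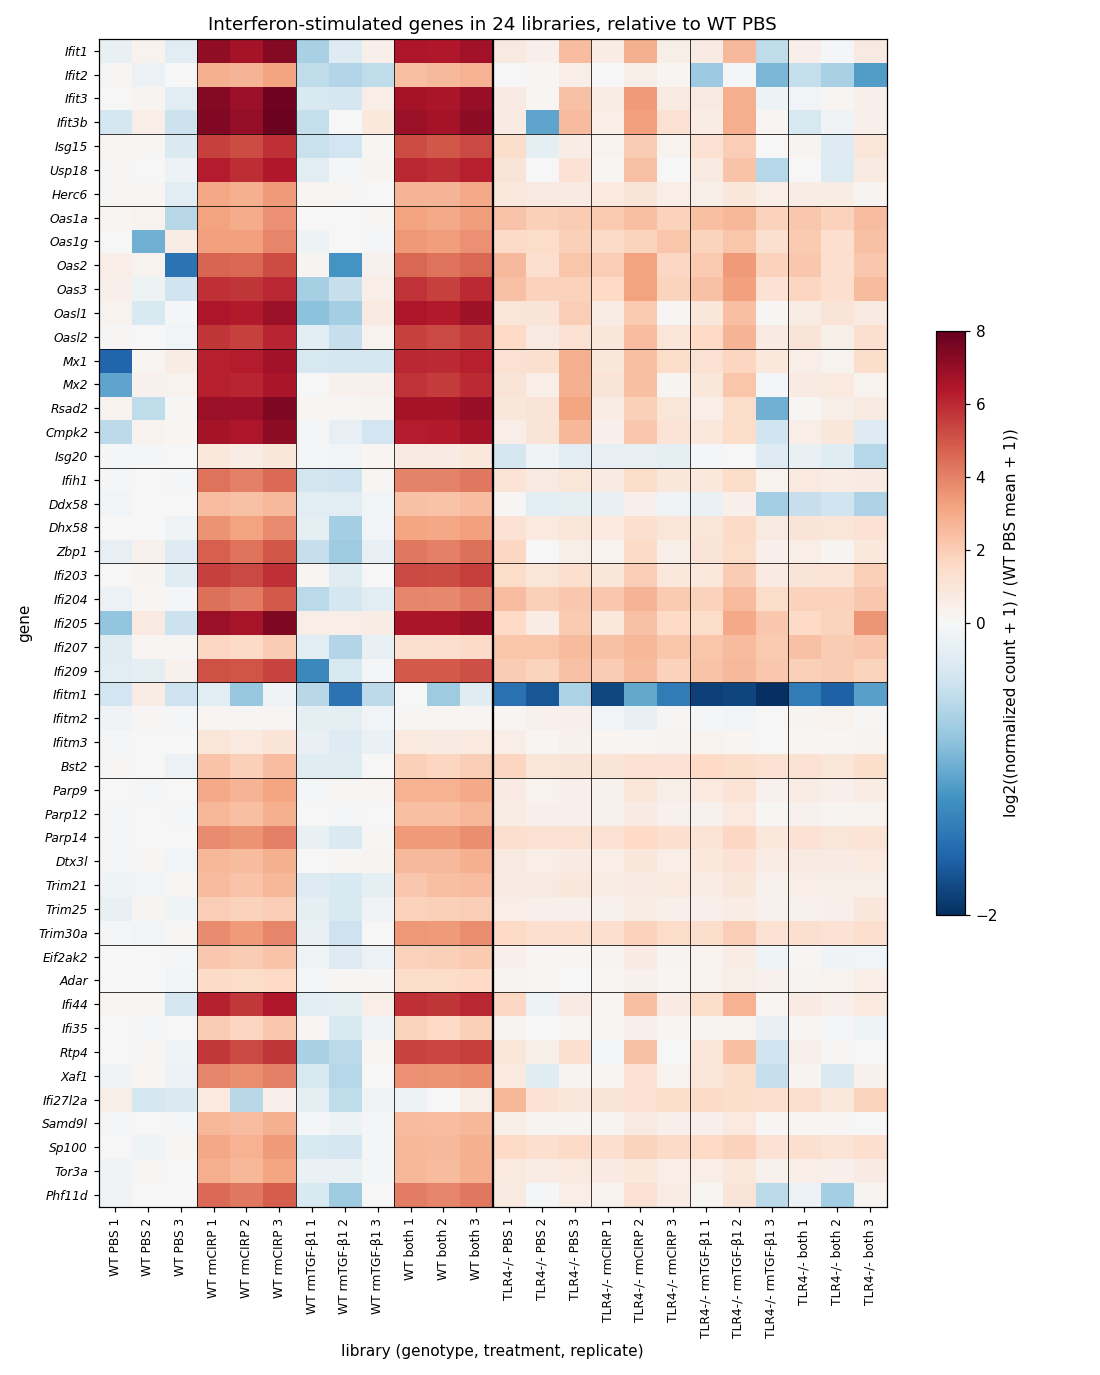
Each of the 49 members (rows, grouped by role) in each of the 24 libraries (columns), coloured by log2 of the normalized count plus 1 over the WT PBS mean plus 1. The 6 WT libraries with rmCIRP or both are raised in nearly every row, with medians over the members from 3.40 to 3.92, while the 12 libraries labelled TLR4-/- have medians from 0.32 to 1.60.

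The IFIT genes, whose products bind viral RNA, had the highest median of the 10 groups by role: all 4 rose, with a median log2 fold change of 7.22. Ifit3 had 64.5, 74.9 and 55.2 normalized counts in the 3 WT libraries with PBS and 10569, 7618 and 14469 with rmCIRP. That was 167-fold by the model, a log2 fold change of 7.38 (SE 0.64). Ifit3b, its near copy, went from 14.4, 28 and 13.5 to 3381, 2620.4 and 4557, a log2 fold change of 7.55 (SE 0.56). Reads that fit both copies were not counted on either, so the share of each is uncertain. Ifit1, the partner of Ifit3 that recognizes RNA without the host's cap mark, rose by 7.05 and Ifit2 by 2.93 on the log2 scale.

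Isg15 encodes a small ubiquitin-like tag that is attached to other proteins. It had 191, 178 and 138 normalized counts with PBS and 7677, 6447 and 9582 with rmCIRP, a log2 change of 5.54 (SE 0.43). Usp18, which removes that tag and also restrains the interferon receptor, had 74.1, 69.9 and 63.5 against 5339.6, 4182 and 5856, a log2 fold change of 6.20 (SE 0.47). The groups were far apart in both genes. Herc6, the ligase that attaches the tag in mouse cells, rose by 3.13.

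The OAS enzymes make short oligoadenylates that switch on RNase L, which degrades RNA. All 6 measured members rose, with a median log2 fold change of 5.37. Oasl1, a family member without this activity that restrains Irf7 translation, had 18.3, 12 and 14.6 normalized counts with PBS and 1423, 1284 and 1882 with rmCIRP, a log2 change of 6.66 (SE 0.38). Oas3 had 11.5, 7.99 and 6.25 against 542, 512 and 629, a log2 fold change of 5.99 (SE 0.43). The others rose by 5.78 (Oasl2), 4.96 (Oas2), 3.66 (Oas1g) and 3.33 (Oas1a). Oas1a and Oas1g are close relatives, and their shares are uncertain for the same reason as those of Ifit3 and Ifit3b.

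Among the genes that act on viruses directly, all 5 rose, by 0.78 to 7.12 on the log2 scale. Rsad2 encodes viperin, which makes a nucleotide that ends viral RNA chains. It had 45.2, 26 and 40.6 normalized counts with PBS and 4642, 4424 and 6638 with rmCIRP, 139-fold and a log2 fold change of 7.12 (SE 0.42). Cmpk2, a mitochondrial nucleotide kinase, had 15.4, 27 and 25 against 2409.8, 2113 and 3286, a log2 fold change of 6.85 (SE 0.38). The dynamin-like GTPases Mx1 and Mx2 rose by 6.60 and 6.44. Isg20, an exonuclease, had the smallest rise of the 5, 0.78.

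The 4 sensors of foreign nucleic acid all rose. Ifih1, which encodes the RNA sensor MDA5, had 166, 176 and 168 normalized counts with PBS and 3536, 2853 and 4032 with rmCIRP, a log2 change of 4.35 (SE 0.22). Zbp1, a sensor of Z-form nucleic acid that can start necroptosis, had 105, 149.8 and 98.9 against 3222, 2402 and 3647, a log2 fold change of 4.71 (SE 0.32). Ddx58 (RIG-I) rose by 2.49 and Dhx58 (LGP2) by 3.54. The Ifi200 family encodes DNA-binding proteins of the PYHIN class, and all 5 measured members rose. Ifi205 had 3.85, 13 and 5.2 normalized counts with PBS and 1005, 805 and 1496 with rmCIRP, a log2 change of 7.20 (SE 0.45). Ifi203 had 65.4, 74.9 and 55.2 against 2989, 2543 and 3812, a log2 fold change of 5.57 (SE 0.30). Ifi209 and Ifi204 rose by 5.28 and 4.53, and Ifi207 by 1.77. Members of this family resemble each other, so reads shared between them may have been left out.

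Of the 4 genes for restriction proteins of the membrane, 2 rose and 2 were not called. Bst2 encodes tetherin, which holds new virions on the cell surface. It had 1183, 1143 and 1038 normalized counts with PBS and 5534, 4161 and 6259 with rmCIRP, a log2 change of 2.24 (SE 0.17). Ifitm3, which blocks the fusion of viruses with cell membranes, was already at 8905, 9153 and 9145 with PBS and reached 17993, 15436 and 18403, a log2 fold change of 0.92 (SE 0.07). Its relatives were not called. Ifitm2 had 971, 1094 and 995 normalized counts with PBS and 1150.3, 1084 and 1106 with rmCIRP, and its groups overlapped, with a log2 fold change of 0.12 (adjusted p = 0.168, SE 0.07) by edgeR's quasi-likelihood test. Ifitm1 had 30.8, 60.9 and 30.2 against 35, 23.7 and 38.5, also overlapping, with a log2 fold change of -0.33 (adjusted p = 0.409, SE 0.29) by that edgeR test. The value of Ifitm1 rested on WT PBS library 2, without which it was 0.09, and without the same library Ifitm2 passed the threshold at 0.18. The remaining member not called, Ifi27l2a, had 32.7, 18 and 18.7 normalized counts with PBS and 40.3, 15.4 and 31.6 with rmCIRP, a log2 change of 0.31 (adjusted p = 0.65, SE 0.48) by that edgeR test.

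All 7 genes for PARP, DTX3L and TRIM proteins, which add ADP-ribose or ubiquitin to other proteins, rose, with log2 fold changes from 1.94 to 3.80. Parp14 had 278, 293 and 287 normalized counts with PBS and 3908, 3397 and 4726 with rmCIRP, a log2 change of 3.80 (SE 0.16). Trim30a had 248, 247 and 273 against 3507, 2719 and 3896, a log2 fold change of 3.72 (SE 0.17). Parp9 and its partner Dtx3l rose by 2.99 and 2.67, Parp12 by 2.64, and the ubiquitin ligase genes Trim21 and Trim25 by 2.50 and 1.94. Eif2ak2 encodes PKR, the kinase that stops translation when double-stranded RNA is present, and Adar encodes the enzyme that edits such RNA. Eif2ak2 had 934, 969 and 907 against 4217, 3815 and 4604, a log2 fold change of 2.16 (SE 0.13), and Adar had 1119, 1162 and 1081 against 3285, 3050.5 and 3424, a log2 fold change of 1.53 (SE 0.07). Of the other 9 members 8 rose. Ifi44, a cytoplasmic protein of the interferon response, had 61.6, 58.9 and 42.7 normalized counts with PBS and 3963, 2734 and 4705 with rmCIRP, a log2 change of 6.11 (SE 0.48). Rtp4 had 35.6, 36.9 and 33.3 against 1794, 1391 and 1909.6, a log2 fold change of 5.58 (SE 0.44). The rest of this group rose by 4.55 (Phf11d), 3.88 (Xaf1, which binds the apoptosis inhibitor XIAP), 3.12 (Sp100, a nuclear body protein), 2.92 (Tor3a), 2.67 (Samd9l) and 1.97 (Ifi35).

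**Figure D3:**
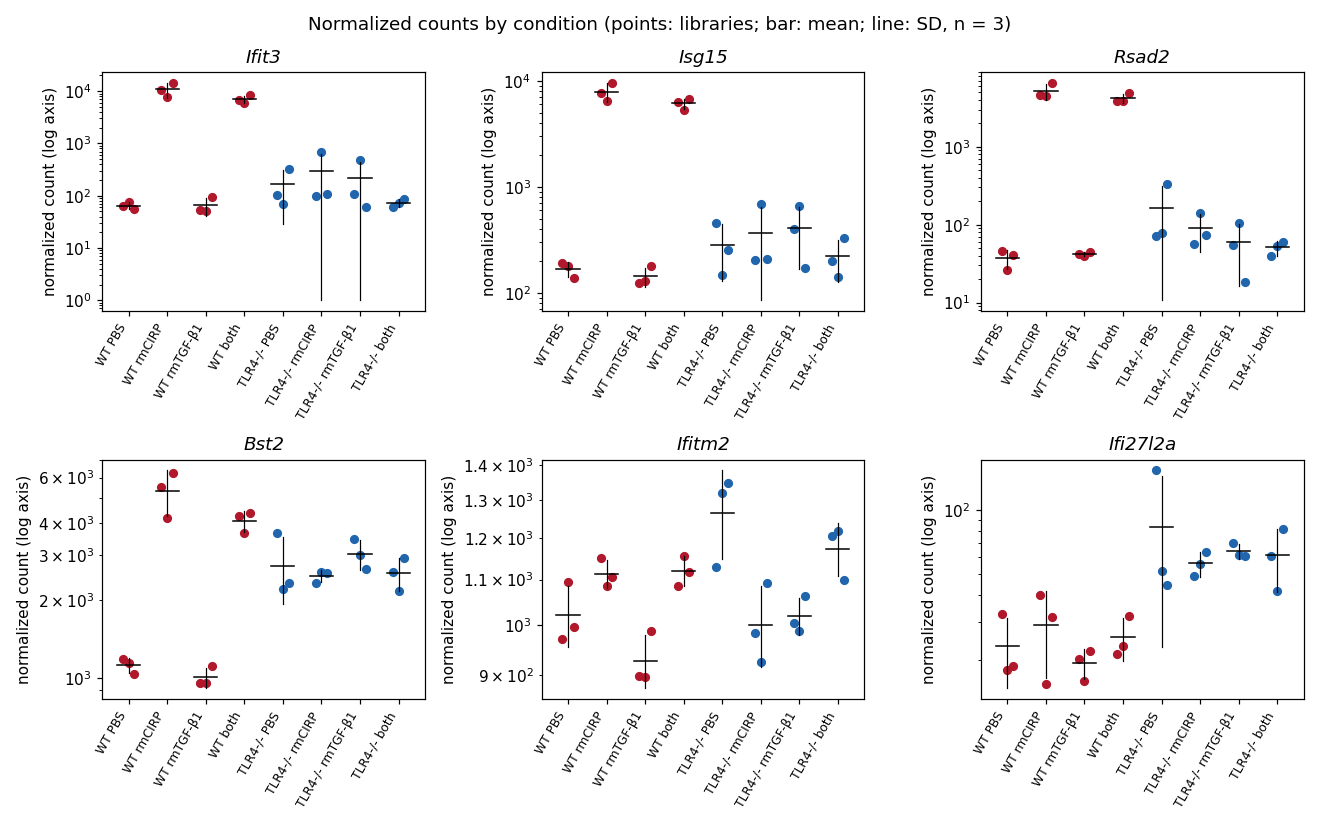
Normalized counts (y axis, log scale) of 6 members in the 8 conditions, with 1 point per library, a bar at the mean and a line of 1 SD either way, which is cut at 1 where the SD exceeds the mean. By their means, Ifit3, Isg15, Rsad2 and Bst2 stand highest in the WT conditions with rmCIRP, with Bst2 least apart, whereas Ifitm2 and Ifi27l2a do not separate WT rmCIRP from WT PBS.

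Members rose both with and without the ISRE letters in their windows. In WT cells with rmCIRP, 18 of the 19 members with the core in a window rose, with a median log2 fold change of 3.72 over the 19. Of the 18 members with a window that lacks it, 17 rose, with a median of 3.02. Of the 12 members without a window, 11 rose, with a median of 4.62. The member of the first set that was not called was Ifitm2, whose match begins 46 bases before the start. Oasl1 and Cmpk2 were among the strongest responders and hold no match in their windows.

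Most genes that carry the interferon signal were higher as well. Of 35 genes of the pathway outside the list, 33 had a row in the tables and 28 were tested, and in WT cells with rmCIRP 23 were higher, 2 were lower and 3 were not called. Over all 16258 genes tested, 19.8% were higher and 3918 genes were lower. The median log2 fold change of the 28 was 0.40, well below that of the members. Among the factors, Irf7, which amplifies type I interferon transcription, rose from 95.3, 113 and 90.6 normalized counts with PBS to 3613, 2896 and 4482 with rmCIRP, a log2 change of 5.19 (SE 0.35). Irf9, the DNA-binding part of ISGF3, rose by 2.07. The receptor genes Ifnar1 and Ifnar2 rose by 0.30 and 0.58, and the kinase genes Jak1 and Tyk2 by 0.13 and 0.16. Irf3 was not called, at -0.08, and Irf8 fell by 0.86. Of the targets and inhibitors, the chemokine gene Cxcl10 rose by 7.89, Nlrc5 by 3.17, and Socs1 and Socs3, which restrain cytokine receptors, by 1.68 and 1.57.

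Transcripts of the ligands themselves were at the limit of detection after 24 h. Ifnb1 had 1, 1 and 3 reads in the WT rmCIRP libraries, 3, 0 and 3 in the WT libraries with both, 2 in library 2 labelled TLR4-/- with rmCIRP, and 0 in the remaining 17 libraries. Ifna2, Ifna4, Ifna5 and Ifng had 0 reads in every library, and a count of 0 allows up to 3 reads per library by counting error. A fold change is not given for these genes.

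The 3 WT libraries with rmCIRP were ordered in the same way for almost every member. Library 3 was the highest of the 3 in 47 members and library 2 the lowest in 48, against 35.0% and 36.4% of all genes tested. The members took 0.448%, 0.38% and 0.532% of the reads on genes in libraries 1 to 3. For Ifit3 the 3 libraries ranged from 7618 to 14469, against a PBS maximum of 74.9, so the spread between libraries was small beside the difference between treatments. In WT libraries with both, library 3 was likewise highest in 47 members (36.3% of all genes). The summed macrophage markers in WT rmCIRP libraries 1 to 3 were 81314, 77495 and 82146. All 3 were below the WT PBS libraries (91346 to 99427), but without Lyz2 the sums overlapped, at 17063 to 18264 with rmCIRP and 17339 to 19326 with PBS. Of the 14 macrophage markers 4 were higher and 9 lower with rmCIRP, and the higher ones included Fcgr1 (2.26) and Adgre1 (0.98). The part of macrophages in the rise of the members was not tested.

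rmTGF-β1 alone moved no member past the threshold in WT cells. The call count was 0 of 49 by edgeR's quasi-likelihood test, against 12.4% of all genes tested that were called in either direction, 4 members had an unadjusted p under 0.05 (22% of all genes did), and DESeq2 also called 0. The median log2 fold change was -0.10, against -0.02 over all genes. The lowest adjusted p by that edgeR test was 0.108, for Ifit2, with 465, 396 and 432 normalized counts with PBS and 304, 287 and 303 with rmTGF-β1, a log2 fold change of -0.54 (SE 0.20). The 3 rmTGF-β1 libraries all lay below the 3 PBS libraries in 8 members and above them in 0, and the same was true of 15.6% and 14.1% of all genes.

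The rise with rmCIRP was also present when rmTGF-β1 was given with it. In WT cells with both against rmTGF-β1 alone, 47 of the 49 members were higher (95.9%, against 20.5% of all genes tested) and none was called lower, with a median log2 fold change of 3.67. Ifit3 had 52.5, 51 and 93 normalized counts with rmTGF-β1 and 6742, 6012 and 8272 with both, a log2 fold change of 6.70 (SE 0.63). Ifit3b had 13.1, 19 and 33.8 against 2335, 1989 and 2791, a log2 fold change of 6.70 (SE 0.55). The groups did not overlap in any of the 47, as was so for 24.9% of all genes tested. Cmpk2, Rsad2 and Oasl1 followed at 6.68, 6.63 and 6.63. Ifitm2 was called here, at 0.27 (adjusted p = 0.00374, SE 0.07) by edgeR's quasi-likelihood test, with 898, 897 and 986 normalized counts with rmTGF-β1 and 1086, 1156 and 1118 with both. Ifitm1 (0.52) and Ifi27l2a (0.38) were not called. The response to rmCIRP with rmTGF-β1 minus that without it was tested as an interaction, and 0 of 49 members were called by edgeR's quasi-likelihood test, 0 had an unadjusted p under 0.05 (5.64% of all genes did) and DESeq2 called 0. Over all genes tested, 0.0492% were called.

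Between the groups that both received rmCIRP, most members had fold changes a little below 0 with rmTGF-β1, and few were called. With both against rmCIRP alone in WT cells, 47 of 49 members had a log2 fold change below 0 (53.1% of all genes did), with a median of -0.23. Of these, 5 were called lower and none higher (10.2%, close to the 10.5% of all genes tested that were called lower). Sp100 had 1747, 1433 and 2244 normalized counts with rmCIRP and 1312, 1258 and 1492 with both, a log2 fold change of -0.42 (adjusted p = 0.0436, SE 0.14) by edgeR's quasi-likelihood test, and its groups overlapped. Ifi204 had 1443, 1237 and 2038 against 1045, 990.0 and 1236, with no overlap by a narrow margin, a log2 fold change of -0.53 (adjusted p = 0.0588, SE 0.19) by that test in edgeR. Bst2, Dhx58 and Ifitm3 had log2 fold changes of -0.38, -0.36 and -0.19. These calls depended on single libraries: 0 members were called without WT rmCIRP library 3, without WT both library 1 or without WT both library 2, and 2 and 11 were called without WT rmCIRP libraries 1 and 2. With only the 6 libraries compared in the fit, 27 members were called, all lower. The members took 0.453% ± 0.0761 (SD, n = 3) of the reads on genes with rmCIRP and 0.372% ± 0.0324 with both, and the ranges, 0.38% to 0.532% and 0.343% to 0.407%, overlapped.

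In the cells labelled TLR4-/-, rmCIRP moved no member past the threshold. By edgeR's quasi-likelihood test the count was 0 of 49, and 0% of all genes tested were called. An unadjusted p under 0.05 was reached by 2 members (6.99% of all genes), and DESeq2 called 1. The median log2 fold change was 0.08. Ifit3 had 105, 71 and 327 normalized counts with PBS and 99.3, 684 and 108 with rmCIRP, a log2 change of 0.84 (adjusted p = 0.885, SE 0.66) by edgeR's quasi-likelihood test. Rsad2 had 71.1, 78.4 and 335 against 57, 143 and 72.7, a log2 fold change of -0.82 (adjusted p = 0.797, SE 0.48) by the same edgeR test. In each of these genes 1 library of a group stood far above its replicates, and the groups overlapped. The lowest adjusted p was that of Ifitm2, 0.104 in edgeR, with 1130.2, 1319 and 1348 normalized counts with PBS and 983, 925 and 1092 with rmCIRP, a log2 change of -0.33 (SE 0.07). Its groups did not overlap.

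**Figure D4:**
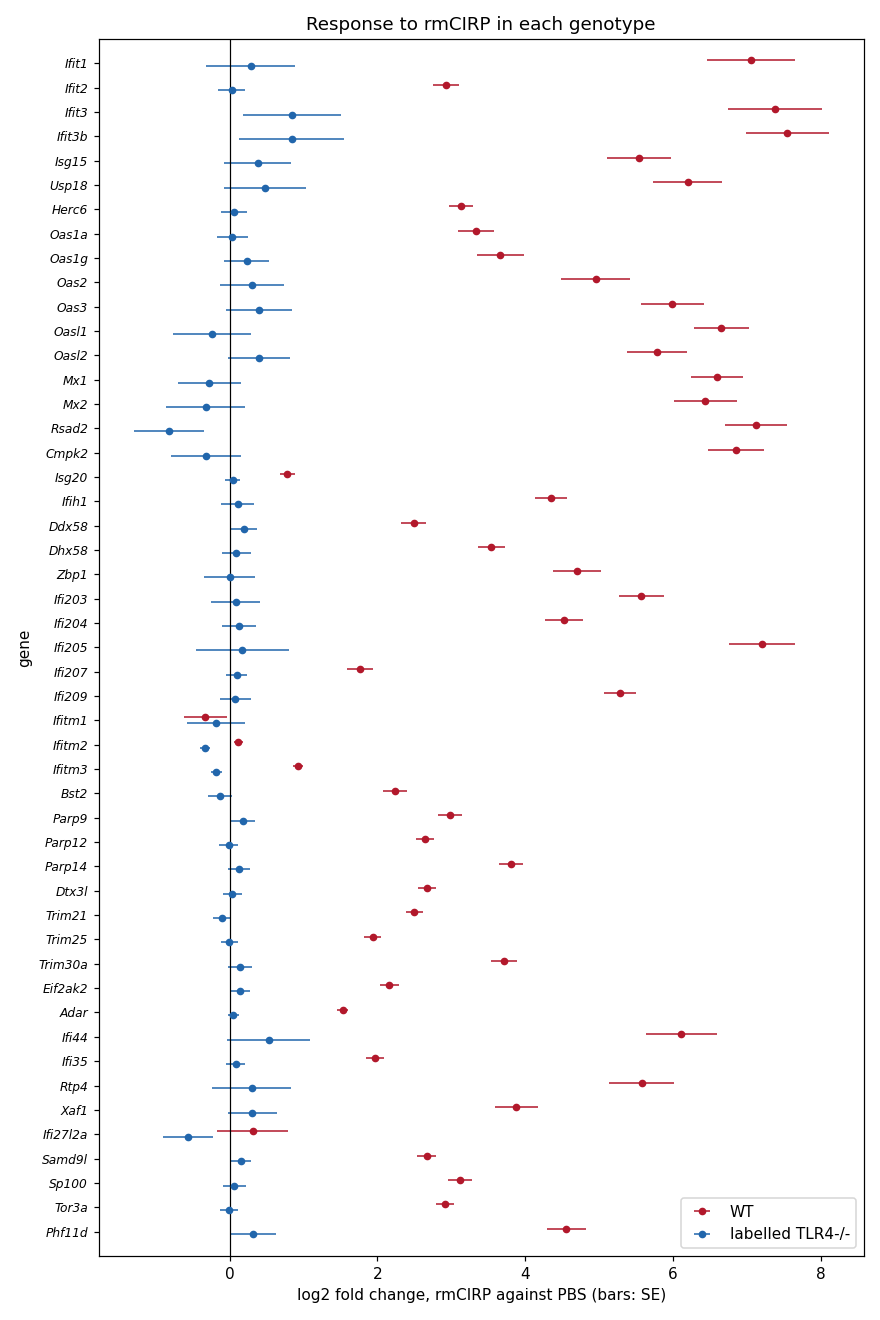
Log2 fold change with rmCIRP against PBS (x axis, with bars of 1 SE) for each of the 49 members in WT cells (red) and in cells labelled TLR4-/- (blue). The WT values reach 7.55 and the others stay between -0.82 and 0.84, and Ifitm1, Ifitm2 and Ifi27l2a, the 3 not called in WT cells, are at -0.18, -0.33 and -0.56 in cells labelled TLR4-/-.

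The response to rmCIRP differed between the genotypes for 47 of the 49 members, by the test of the difference itself in edgeR's quasi-likelihood fit. In all 47 the log2 fold change was lower in the cells labelled TLR4-/- (95.9%, against 14.3% of all genes tested that were called lower). The WT log2 fold change was taken from that of the other genotype, and the median of this difference was -3.57 (0.03 over all genes). Rsad2 had the largest difference, -7.94 (adjusted p = 8.2e-09, SE 0.67) in edgeR's quasi-likelihood test, from 7.12 in WT cells and -0.82 in cells labelled TLR4-/-. Cmpk2 differed by -7.17, Ifi205 by -7.03, Oasl1 by -6.90 and Mx1 by -6.88. Ifitm1 (0.15) and Ifi27l2a (-0.88) were not called. A count of 47 was also reached when the 3 libraries labelled TLR4-/- described next, which stood high in several members, were left out, an alternative added after the data had been seen. The comparison does not separate the label from the other differences between the cultures, among them the macrophage markers, whose sums in the libraries labelled TLR4-/- were 346382 to 397817 with PBS and 335677 to 380756 with rmCIRP. The part of these in the difference was not tested. Of the 28 pathway genes tested, the difference was called below 0 for 22 and above 0 for 1, Irf8. With rmCIRP, Irf8 fell in WT cells, from a mean of 280 normalized counts to 155. In cells labelled TLR4-/- its means were 1172 with PBS and 1129 with rmCIRP. Irf7 differed by -4.71.

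In each of the rmCIRP and rmTGF-β1 groups labelled TLR4-/-, most members shared 1 library of the 3 as their highest. With rmCIRP, library 2 was the highest of 3 in 44 of the 49 members (29.0% of all genes tested were highest there). With rmTGF-β1, library 2 was highest in 45 members (34.4% of all genes) and library 3 lowest in 45 (37.6%). For Ifit1 the normalized counts were 145, 114 and 486 in the PBS libraries and 131, 645 and 122 in the rmCIRP libraries. They were 141, 536 and 61.1 in those given rmTGF-β1 and 118, 84.5 and 142 in those given the pair, against 78.9, 108 and 74.9 in WT PBS libraries. The high libraries did not share all members: with PBS, library 3 was high in Ifit1, Ifit3 (327), Rsad2 (335) and Cmpk2 (149), whereas library 1 was highest in 29 members (31.1% of all genes), among them Isg15 (456), Zbp1 (368) and Bst2 (3648). Even the highest of these 12 values of Ifit1, 645, was far below the lowest WT library with rmCIRP, 8855. The summed macrophage markers of PBS library 3, rmCIRP library 2 and rmTGF-β1 library 2 were 397817, 335677 and 364046, the highest, the lowest and the lowest of their groups. Their depths, 32761142, 35651924 and 31585969 reads on genes, lay within the range of the 24 libraries.

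**Figure D5:**
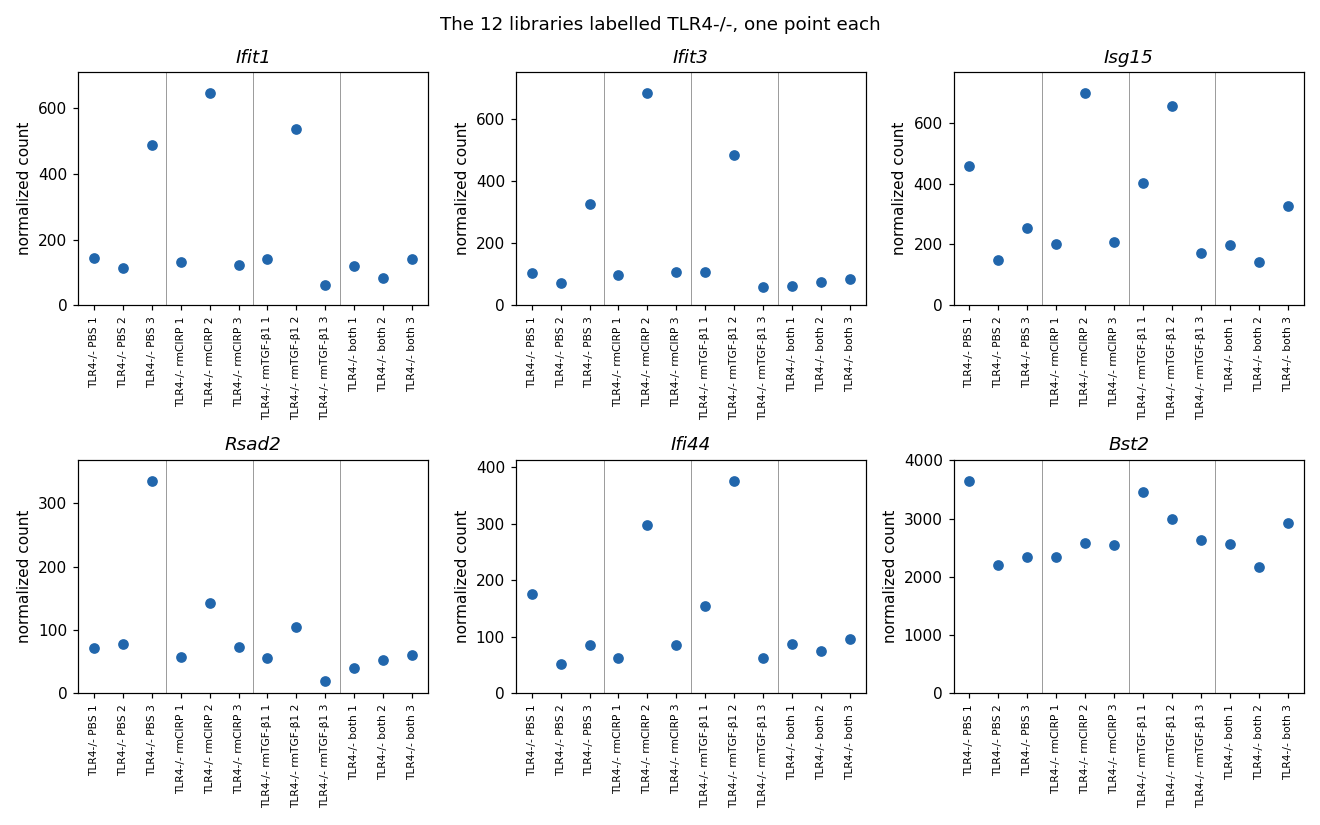
Normalized counts (y axis, from 0) of 6 members in the 12 libraries labelled TLR4-/-, with 1 point per library and lines between treatments. Ifit1 and Ifit3 stand high in PBS library 3, rmCIRP library 2 and rmTGF-β1 library 2 (486, 645 and 536 for Ifit1). Among the PBS libraries, Bst2 and Isg15 are highest in library 1 (456 for Isg15). Isg15 stands higher still in rmCIRP library 2 and rmTGF-β1 library 2 (697 and 654).

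With both against rmTGF-β1 in the cells labelled TLR4-/-, edgeR's quasi-likelihood test called 0 of 49 members (2.69% of all genes tested were called), 9 of the 49 had an unadjusted p under 0.05 (17.9% of all genes did, a like share), and DESeq2 called 2. The median log2 fold change was -0.25. The count rested on a few libraries, since 14 members were called without rmTGF-β1 library 3, 13 of them lower, and 1 without library 1 of the cells with both. With rmTGF-β1 against PBS, 1 member was higher and 4 were lower (10.2%, against 23.9% of all genes tested called in either direction). Rsad2 had 71.1, 78.4 and 335 normalized counts with PBS and 54.9, 104 and 18.6 with rmTGF-β1, a log2 fold change of -1.51 (adjusted p = 0.0519, SE 0.53) by edgeR's quasi-likelihood test. Without PBS library 3, the high one, its log2 fold change was -0.38 and it was not called. Ifit2 had 436, 450.4 and 613 against 259, 419 and 229.5, a log2 fold change of -0.73 (adjusted p = 0.0127, SE 0.20) in edgeR, and its groups did not overlap. Ifitm2 fell by 0.31 and Ifitm3 by 0.19, while Adar rose by 0.22. Without PBS library 3, 2 members were called, without rmTGF-β1 library 3, 8 were, and without all 3 of the libraries high in Ifit1, 3 were, all lower. The response to rmTGF-β1 was called as differing by genotype for 0 of 49 members in edgeR (0.0861% of all genes tested were called), 0 had an unadjusted p under 0.05 (10.4% of all genes did), and DESeq2 called 0.

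Without treatment, most members stood higher in the cells labelled TLR4-/- than in WT cells. With PBS, 32 of the 49 were higher (65.3%, against 23.2% of all genes tested that were higher) and 1, Ifitm1, was lower (24% of all genes were), with a median log2 fold change of 0.96 against -0.02 over all genes. All 6 OAS genes, all 7 genes for PARP, DTX3L and TRIM proteins, 4 of the 5 Ifi200 genes and 3 of the 4 sensors were higher. None of the 4 IFIT genes was called, but their log2 fold changes ran from 0.21 to 1.51, with a median of 1.40. Ifit1 had 78.9, 108 and 74.9 normalized counts in WT cells and 145, 114 and 486 in cells labelled TLR4-/-, where 1 library stood far above its replicates. Ifi207 had 93.4, 123 and 116 normalized counts in WT cells and 514, 509.7 and 639 in cells labelled TLR4-/-, a log2 fold change of 2.32 (adjusted p = 9.34e-11, SE 0.17) by edgeR's quasi-likelihood test. Ifi204 had 62.6, 74.9 and 66.6 against 389, 263 and 313, a log2 fold change of 2.24 (adjusted p = 1.48e-06, SE 0.29) in edgeR. The 3 libraries of one genotype lay wholly above those of the other in both genes. Oas2, Mx1 and Ifi209 were higher by 2.21, 2.16 and 2.15. Ifitm1 had 30.8, 60.9 and 30.2 in WT cells and 13.8, 11.7 and 25.9 in cells labelled TLR4-/-, a log2 fold change of -1.24 (adjusted p = 0.00441, SE 0.33) in edgeR. Isg15 overlapped between the genotypes, with 191, 178 and 138 against 456, 148 and 253 normalized counts, and was not called at 0.76 (SE 0.51). All 14 macrophage markers were also higher in the cells labelled TLR4-/- with PBS, by a median of 2.22, and all 3 epithelial markers tested were higher, by a median of 1.89, while 4 of the 5 endothelial markers were lower (median -1.48). The part of these cell types in the levels of the members was not tested. Of the 28 pathway genes 18 were higher, among them Irf8 (2.06), Irf5 (1.76) and Nlrc5 (2.19), 3 were lower, Jak2 (-0.53), Ptpn2 (-0.19) and Irf3 (-0.12), and 7 were not called.

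With rmTGF-β1 the same comparison gave 35 members higher (71.4%, against 24.4% of all genes tested) and 1, again Ifitm1, lower (22.1% of all genes), with a median log2 fold change of 1.34. Ifi209 had 5.04, 11 and 13.5 normalized counts in WT cells and 70.1, 87.1 and 63.8 in cells labelled TLR4-/-, a log2 fold change of 2.85 (SE 0.29), and Oas2, Oas3, Ifi207 and Ifi204 followed at 2.75, 2.65, 2.61 and 2.39. All 14 macrophage markers were higher here too, by a median of 2.29, as were the 3 epithelial markers (2.53), and 4 of the 5 endothelial markers were lower (-1.60). With rmCIRP the order was turned around. Of the 49 members 47 were lower in the cells labelled TLR4-/- (95.9%, against 29.2% of all genes tested that were lower). The other 2 were higher (30.4% of all genes were), and the median log2 fold change of the 49 was -2.40. The 14 macrophage markers were all higher, by a median of 2.36. The 3 epithelial markers were higher by a median of 3.09, and 4 of the 5 endothelial markers were lower (-2.12). The part of these cell types in the levels of the members was not tested here either. Rsad2 had 4642, 4424 and 6638 normalized counts in WT cells and 57, 143 and 72.7 in cells labelled TLR4-/-, a log2 fold change of -5.83 (SE 0.36). Oasl1, Cmpk2, Ifi205 and Ifit3b were lower too, at log2 fold changes of -5.43, -5.40, -5.34 and -5.29. The 2 members that stayed higher were Ifi207, with 357, 326 and 448 against 554, 697 and 515, at 0.65 (adjusted p = 0.000485, SE 0.14) in edgeR, and Ifi27l2a, with 40.3, 15.4 and 31.6 against 49.2, 55.7 and 63.9, at 0.96 (adjusted p = 0.0518, SE 0.41) in edgeR, both named after their values were seen. These comparisons between genotypes share libraries with the comparisons within each genotype, so they are not separate evidence.

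The share of the reads on genes that fell on the members was also compared over the 8 conditions (mean ± SD, n = 3). Abundant members weigh most in it: in WT cells with PBS, Ifitm3 averaged 9068 normalized counts and Ifit3 64.8. Beside the WT values for PBS, rmCIRP and both given above, the share was 0.0588% ± 0.00384 in WT cells with rmTGF-β1. In cells labelled TLR4-/- it was 0.0961% ± 0.0115 for PBS, 0.0941% ± 0.0128 for rmCIRP, 0.0929% ± 0.0161 for rmTGF-β1 and 0.0843% ± 0.00497 for both. The WT conditions that included rmCIRP stood apart from the other 6, whose libraries ranged from 0.0552% to 0.109%, and the 4 conditions labelled TLR4-/- overlapped each other.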

How the data were processed

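RNA-Seq counts of 24 libraries, 3 for each of 8 conditions, were analysed. The authors aligned reads with STAR to a GENCODE mouse reference, counted them with HTSeq and deposited raw counts per gene symbol, 1 table a library (the submitters' processing notes also name FastQC and the build NCBIM37). The annotation release and strand option are not given in the sources used here. Each table has 55291 gene names and 5 tally lines of reads not assigned to a gene (14.5% to 16.1% of counted reads per library), which were left out. Reads that matched several places (6.07% to 6.82%) or several genes (4.57% to 5.23%) were not counted, which lowers counts of near-identical genes. Samples were grouped by their titles.

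In R 4.3.3, edgeR 4.0.16 kept 16258 of 34285 genes with a count by filterByExpr, scaled libraries by TMM, fitted a mean per condition to all 24 libraries (glmQLFit), and tested 13 contrasts by the quasi-likelihood F-test with Benjamini-Hochberg adjustment over all genes tested, called at an adjusted p under 0.1 as in the study. Each SE was obtained as the size of the log2 fold change over the root of F. The common biological coefficient of variation was 0.0571. Normalized counts are counts over DESeq2 1.42.0 size factors. At 29853346 to 39664606 reads on genes, members with few counts are the least precise, and intervals from counting alone cover counting error only. The procedure was tested on simulated data in which every gene varied independently with the same spread. The members moved together between libraries, so the simulation does not cover that case. The pathway list and marker lists are hand-written, and the members and lists were chosen with earlier results of these data known. Genes named for WT rmCIRP against PBS are, in each of 10 groups by role, up to 2 called members with the largest change and a mean of at least 50 normalized counts, plus every member not called. For the other comparisons they are up to 5 such called members, and others named are illustrations. Promoters and their motifs came from RefSeq windows. Values of 1 gene of the pathway list are not reported here.

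Replicate libraries differed beyond counting error (chi-square per degree of freedom of 2.67 to 50.6). Alternatives were DESeq2, RLE scaling, no filter, a minimum mean count of 10, the replicate number as a block, a fit of only the libraries compared, and each library left out. A fit without 3 libraries labelled TLR4-/- was added after the data had been seen.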

Additional observations from a re-analysis of the deposited data

Results flagged for a closer look

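The response to rmCIRP differed between the genotypes, by the test of the difference itself in edgeR's quasi-likelihood fit, for 47 of the 49 members. The 5 named for the size of their difference (the WT log2 fold change taken from that of the other genotype) were Rsad2, Cmpk2, Ifi205, Oasl1 and Mx1. Rsad2 differed by -7.94 (7.12 in WT cells, -0.82 in cells labelled TLR4-/-, adjusted p = 8.2e-09 in edgeR). Cmpk2 differed by -7.17 (6.85 and -0.32, adjusted p = 4.53e-08 in edgeR) and Ifi205 by -7.03 (7.20 and 0.18, adjusted p = 9.41e-06 in edgeR). Oasl1 differed by -6.90 (6.66 and -0.24, adjusted p = 3.47e-07 in edgeR) and Mx1 by -6.88 (6.60 and -0.28, adjusted p = 3.11e-08 in edgeR). In each of the 5, the 3 WT libraries with rmCIRP all lay above the 3 with PBS, while in cells labelled TLR4-/- the groups overlapped.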

How the results depend on the processing

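The counts of called members kept within 1.5 times of the reported count in 152 of 182 alternative fits, and the 30 others concern comparisons with few calls. In WT cells with rmTGF-β1 against PBS (0 reported), 6 members were called in an unfiltered fit, 3 in a fit of the libraries compared alone and 0 to 1 with a library left out. In WT cells with both against rmCIRP (5), 2 were called with DESeq2, 3 with RLE scaling, 31 without a filter, 3 with a filter at a mean count of 10, 27 with only the libraries compared, and 0 to 11 with a library left out. In cells labelled TLR4-/-, the counts without a filter were 10 with rmCIRP against PBS (0 reported; 7 higher, 3 lower), 22 with both against rmTGF-β1 (0) and 20 with rmTGF-β1 against PBS (5). With DESeq2 they were 1 and 2 for the first 2 of these, and for the last the count was 3 with only the libraries compared and 3 without the 3 libraries high in Ifit1. With a library left out they were 0 to 1, 0 to 14 and 2 to 8. Without a filter, the WT interaction called 2 members and the genotype difference in the response to rmTGF-β1 called 7. The cause of these moves was not tested. Leaving out a library gave 46 to 47 members for rmCIRP in WT cells, 47 in each fit with rmTGF-β1 present, 47 for the genotype difference, 29 to 36 for the genotypes with PBS, 48 to 49 with rmCIRP and 25 to 42 with rmTGF-β1. The last count, 36 as reported, was 25 without rmTGF-β1 library 2 labelled TLR4-/-. Of 751 alternative values for named members, 706 kept their direction and side of the threshold, 42 lost the call, 2 gained it (Ifitm2 with rmCIRP in WT cells, 0.14 with only the libraries compared and 0.18 without WT PBS library 2), and Ifitm1 in WT cells changed sign to 0.09 without WT PBS library 2 (from -0.50 to 0.09 over the fits that left out a library). RLE scaling moved the median of all genes by at most 0.01 in size.

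Libraries share replicate numbers, and the labels do not tie a number to a batch. Over the 84 pairs of libraries that carry the same number in different conditions, the correlation of their deviations from the condition means had a mean of 0.0111 (from -0.1115 to 0.3495, 4 over 0.1), so the numbers were not taken as pairs. With the replicate number as a block, 1 member was called for rmTGF-β1 in WT cells in place of 0, 46 for rmCIRP in WT cells, 34 and 37 for the genotypes with PBS and rmTGF-β1, and no other count moved by over 1.5 times.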
